A study of Mus musculus with 16 samples.

Results

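The comparison described here set spinal cord cells taken 7 d after injury against cells of uninjured animals, with both genotypes pooled. Its members were chosen by animal: the 4 animals at 7 d and the 4 uninjured animals, which held 9160 of the 18203 cells of the series and 8 of its 16 animals. The study followed mouse spinal cord after a lesion of the cervical dorsal columns, with and without Ryk in GFAP-expressing cells, by 10x Genomics 3′ single-cell sequencing of tissue around the lesion, 1 animal per library. At 7 d, 2 animals were Rykfl/fl,GFAPcreERT2 (cKO) and 2 were Ryk+/+,GFAPcreERT2 (WT), and the uninjured group held 2 of each as well. The sample labels call the uninjured animals Sham, whereas the study's design and its cell table treat them as uninjured. All animals were 8 to 10 weeks old, and WT and cKO alike carried the tamoxifen-inducible Cre under a GFAP promoter. The paper describes daily tamoxifen that began before the operation. It does not state that the time since tamoxifen matched between 7 d and uninjured animals. Cells were released from tissue in the presence of actinomycin D, and dead cells were removed before loading.

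Microglia survey intact spinal cord, and after damage they take up myelin and dying cells, load their lysosomes with lipid and switch on a set of genes called damage-associated, while genes of the resting state, such as P2ry12 and Tmem119, are known to decline. Astrocytes near a lesion raise the intermediate filament protein Gfap, and oligodendrocytes are known to raise the protease inhibitor Serpina3n.

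Depth differed between libraries, and in opposite directions in the 2 replicates. In the order cKO replicate 1, WT replicate 1, cKO replicate 2 and WT replicate 2, which is kept for every list of values below, the animals had 1786, 1203, 1521 and 840 cells at 7 d and 208, 980, 1238 and 1384 uninjured. Their total UMIs were 1236573, 649625, 9008729 and 3032957 at 7 d and 774242, 3074681, 1963422 and 2117284 uninjured. The median UMIs per cell were 548, 414, 3509 and 2206.5 at 7 d and 1998.5, 2306.5, 1040.5 and 1057 uninjured, so that injured cells were the shallower ones in replicate 1 and the deeper ones in replicate 2. The mean of these medians was 1669 at 7 d and 1601 uninjured (exact permutation p = 0.971, two-sided), with a difference of -1672 in replicate 1 alone and 1809 in replicate 2 alone. Median detected genes per cell averaged 913 at 7 d and 866 uninjured (exact permutation p = 1), again with opposite signs, -878 in replicate 1 and 972 in replicate 2. The median share of mitochondrial UMIs was 3.11, 3.28, 2.22 and 2.27% at 7 d and 1.36, 4.39, 6.31 and 5.33% uninjured (exact permutation p = 0.171, and 0.0286 without cKO uninjured replicate 1). Haemoglobin UMIs averaged 0.231% per cell at 7 d and 0.148% uninjured (exact permutation p = 0.714). Gm42418, a transcript that overlaps a ribosomal RNA repeat (chromosome 17, 39846958 to 39848788), took 0.257, 0.339, 2.73 and 3.11% of all UMIs at 7 d and 1.15, 0.584, 14.9 and 13.5% uninjured, and was thus highest in the uninjured animals of replicate 2.

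Some libraries go against their names. The names of the cells give another time point than the sample title for 2 of the 8 libraries: cKO uninjured replicate 2 is named WT 7 d, and WT 7 d replicate 2 is named WT 1 d. WT uninjured replicate 2 is named cKO uninjured, which leaves its time point as it is. The deposited cell table gives the condition of the title for all 16 animals, and titles were used here, with gene counts and shares of cells repeated without those 2 libraries. Of 9117 cell barcodes, 43 occurred in more than 1 of the 8 libraries, in 86 cells. Between cKO 7 d replicate 1 and WT 7 d replicate 1 there were 30 shared barcodes, 27 of them in the same cluster in both.

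UMIs were summed per animal within each of the authors' 17 clusters, and an animal entered a cluster with 10 or more cells. Replicate 1 animals have numbers below 10000 and replicate 2 animals have numbers of 10000 and above; this series entered the edgeR fit as a block, and genes with an adjusted p under 0.05 were called. Levels are TMM-scaled CPM over the UMIs of the genes tested, and log2 changes are 7 d over uninjured. DESeq2 was run beside edgeR on all animals with the block, and its counts are given where they differ by more than 1.5 times or edgeR called 0 genes. After a 0 from edgeR, the number in parentheses counts genes at an unadjusted p under 0.05. Doublets were not looked for, and free RNA was not removed. Clusters 1 to 11 could be tested, and Clusters 12 to 17 had too few animals with 10 cells. cKO uninjured replicate 1, with 208 cells in all, had fewer than 10 in Clusters 2, 5, 6, 8, 10 and 11, so those clusters had 3 uninjured animals, and Cluster 2 also lacked cKO 7 d replicate 1. The cluster names were checked against 8 marker genes per cell type, and against 10 for immune cells. None of the astrocyte markers was among the 10 leading genes of Cluster 2, which was led by Nefh, Bc1 and Kif5a, or of Cluster 7, which was led by Gpc5 and included Trpm3, and none of the microglial markers was among those of Cluster 10, which was led by Spp1, Ccl4 and Lpl, so these 3 are called by number. All 8 astrocyte markers were in at least 10% of the cells of Cluster 7 and more than 2-fold above other cells. The same held for all 8 microglial markers in Cluster 10. In Cluster 2, 6 of 8 astrocyte markers were in at least 10% of cells and 4 were more than 2-fold above other cells. Cluster 13, which has no cell type in the deposited cell table, had the ependymal markers Tmem212 and Ccdc153 among its leading genes.

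Ryk, the Wnt receptor deleted in the cKO (chromosome 9, 102834917 to 102908305 on GRCm38), was read first in every animal. Over all cells it was at 51.8, 80, 82.4 and 68.6 CPM at 7 d and 58.1, 70.9, 65.7 and 45.3 CPM uninjured before TMM scaling, and the time points overlapped. These 3′ counts do not check the deletion, since the exon between the loxP sites is not given in the sources used here. In Cluster 7 Ryk was at 67.7, 302, 165 and 182 CPM at 7 d and 95.5, 155, 265 and 192 CPM uninjured (log2 change -0.19, SE 0.32, adjusted p = 0.917). Its log2 change was -0.01 (adjusted p = 0.991) in Cluster 5, -0.19 (adjusted p = 0.676) in endothelial cells, 0.37 (adjusted p = 0.695) in neurons and 0.44 (adjusted p = 0.753) in pericytes. None passed. In pericytes its levels did not overlap, 230.4 to 309 CPM at 7 d against 186 to 204 CPM uninjured.

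Microglia, the resident phagocytes of the cord, are given first. Clusters 6 and 10 were joined for this test, because the clusters were made on the same genes and cells can pass from one to the other. In the joined microglia 70 of 4709 genes were called (1.49%), 49 higher and 21 lower at 7 d, over 4 injured and 3 uninjured animals. Time points did not overlap for 56 of these calls and for 475 of all 4709 genes tested. Of 30 genes listed as damage-associated, 28 were tested, 13 were called higher and 0 lower, with a median log2 change of 1.44, also when genes without a UMI in uninjured microglia were put at their lower bound, beside -0.0081 over all genes tested. Of 18 homeostatic genes tested 0 were higher and 1 was lower, with a median of -0.46. The lysosome and phagocytosis list had 25 of 27 genes tested, 5 higher and 0 lower, with a median of 0.34. Axl, Ctsd and Ctsb are counted both here and among the damage-associated calls.

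Secreted and surface proteins of the damage-associated list were among the genes that rose. Gpnmb, a transmembrane glycoprotein of lipid-laden phagocytes (chromosome 6, 49036546 to 49070929), was at 719.7, 1127, 139.8 and 407 CPM at 7 d and 0, 0 and 0 CPM uninjured. All 4 injured animals expressed it and no uninjured animal had a UMI, so its level was at least 58.5-fold higher when 3 counts are allowed over the uninjured group (adjusted p = 7.7e-05). Spp1, which encodes the secreted matrix protein osteopontin (chromosome 5, 104435118 to 104441050), was at 5008, 5362, 376 and 1413 CPM at 7 d and 4.14, 139 and 0 CPM uninjured (log2 change 6.14, SE 0.99, adjusted p = 0.00311). The lowest injured animal lay above the highest uninjured one, and both injured animals of replicate 1 lay above those of replicate 2. Igf1, a growth factor (chromosome 10, 87858265 to 87937042), was at 312, 275, 151 and 101 CPM at 7 d and 0, 27.8 and 9.47 CPM uninjured, a pooled ratio of 26-fold (95% counting interval 8.81 to 127) with adjusted p = 0.000768. Csf1, the growth factor that sustains microglia themselves, was at 178, 266, 161 and 193 CPM at 7 d and 8.27, 125 and 0 CPM uninjured (log2 change 2.74, SE 0.61, adjusted p = 0.0277). For both growth factors the lowest injured value exceeded the highest uninjured one. Clec7a, a receptor for fungal glucans, rose from 41.4 to 133 CPM to 254 to 535 CPM (log2 change 2.09, adjusted p = 0.0136), and Axl, a receptor kinase for the uptake of dying cells, rose by 2.50 (adjusted p = 0.0136) on the log2 scale.

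Apoc1, an apolipoprotein (chromosome 7, 19689481 to 19692660), was at 589, 312, 203 and 188 CPM at 7 d and 12.4, 13.9 and 0 CPM uninjured (log2 change 5.14, SE 0.53, adjusted p = 4.7e-05). Fabp5, a fatty acid-binding protein, was at 672, 972, 182 and 596 CPM at 7 d and 8.27, 55.6 and 66.3 CPM uninjured (log2 change 4.00, SE 0.65, adjusted p = 0.00311). Abca1, which exports cholesterol from cells, was at 547, 385, 485 and 497 CPM at 7 d and 128, 97.3 and 85.2 CPM uninjured (log2 change 2.16, SE 0.30, adjusted p = 0.000806). Injured and uninjured animals did not overlap for any of these 3 genes, and Abca1 was nearly level among the injured animals. Ch25h, which makes 25-hydroxycholesterol, was without a UMI in uninjured microglia, and its level at 7 d was at least 13.1-fold higher (adjusted p = 0.0203). Lipa, the lysosomal acid lipase, rose by 2.08 (adjusted p = 0.0136) on the log2 scale. Apoe, the main lipid carrier of the nervous system (chromosome 7, 19696109 to 19699188), did not pass the threshold at 56191, 33462, 10599 and 15448 CPM at 7 d and 1406.5, 8159 and 4743 CPM uninjured (log2 change 2.23, SE 0.65, adjusted p = 0.105), although its animals did not overlap. Its spread among injured animals was wide, with replicate 1 above replicate 2, and it passed without WT uninjured replicate 1, without cKO uninjured replicate 2 or without cKO 7 d replicate 2.

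Ctsd, the aspartyl protease cathepsin D, was at 16972, 12098, 6108 and 7060.2 CPM at 7 d and 3587, 3336 and 3569 CPM uninjured (log2 change 1.35, SE 0.31, adjusted p = 0.0291). Ctsb, the cysteine protease cathepsin B, was at 6578, 5297.5, 2357 and 3461 CPM at 7 d and 1332, 1181 and 1439 CPM uninjured (log2 change 1.54, SE 0.30, adjusted p = 0.013). Uninjured animals were within a narrow band for both proteases, and every injured animal lay above it. Cst7, which encodes cystatin F, an inhibitor of lysosomal cysteine proteases (chromosome 2, 150570415 to 150578944), was at 372, 147, 88.4 and 132 CPM at 7 d and 0, 13.9 and 9.47 CPM uninjured, a pooled ratio of 35.6-fold (95% counting interval 9.76 to 295) with adjusted p = 0.000992. Cst3, which encodes the secreted inhibitor cystatin C (chromosome 2, 148871722 to 148875692), went the other way, at 17688, 24453, 14839 and 14576 CPM at 7 d and 35249, 49232 and 51933 CPM uninjured (log2 change -1.39, SE 0.30, adjusted p = 0.0233). It was the 1 homeostatic gene called. Lyz2, the lysozyme of macrophages, rose by 2.40 (adjusted p = 0.0203) on the log2 scale, although cKO 7 d replicate 2, at 828 CPM, lay below WT uninjured replicate 2, at 871 CPM.

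Fn1, which encodes fibronectin, was at 321, 385, 177 and 129.8 CPM at 7 d and 0, 0 and 9.47 CPM uninjured, from 1 UMI in all uninjured microglia to 374 at 7 d, a pooled ratio of 91.1-fold (95% counting interval 16.3 to 3609) with adjusted p = 4.7e-05. Lgals3, which encodes galectin-3, was at 327, 541, 65.7 and 149 CPM at 7 d and 0, 55.6 and 9.47 CPM uninjured (log2 change 4.25, SE 0.82, adjusted p = 0.0108), and Lgals1, galectin-1, had a pooled ratio of 16.4-fold (95% counting interval 4.47 to 137) with adjusted p = 0.00198. Every injured animal lay above every uninjured one for these genes. Lgals3bp, which encodes a secreted galectin-3 ligand, rose by 2.24 (adjusted p = 0.0038) on the log2 scale, the chemokine Cxcl16 by 1.77 (adjusted p = 0.0233) and the semaphorin and Vegf receptor Nrp1 by 1.49 (adjusted p = 0.0103). Ms4a7, a membrane protein used here among the immune markers, was also at 0 in uninjured microglia, so that its level at 7 d was at least 7.23-fold higher (adjusted p = 0.0103).

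P2ry12, the ADP receptor of surveying microglia (chromosome 3, 59216272 to 59262871), was at 1008, 898, 1533 and 1052 CPM at 7 d and 1940.1, 2168 and 1922 CPM uninjured (log2 change -0.81, SE 0.25, adjusted p = 0.139). Tmem119, a microglial membrane protein (chromosome 5, 113793729 to 113800516), was at 407, 532, 661 and 482 CPM at 7 d and 1084, 723 and 937 CPM uninjured (log2 change -0.82, SE 0.26, adjusted p = 0.164). For both genes all injured animals lay below all uninjured ones, and neither passed. The fractalkine receptor Cx3cr1, with -0.20 (adjusted p = 0.863), and the receptor Csf1r, with -0.05 (adjusted p = 0.984), had smaller log2 changes and overlapped. Genes that fell included mt-Atp8, an ATP synthase subunit encoded in mitochondria, at 312, 229, 299 and 478 CPM at 7 d and 1001, 1571 and 1486 CPM uninjured (log2 change -1.93, SE 0.26, adjusted p = 0.000768), and the mitochondrial ribosomal RNAs mt-Rnr1 (-1.42, adjusted p = 0.016) and mt-Rnr2 (-1.48, adjusted p = 0.0128). Ndufs7, a subunit of respiratory complex I, fell with a log2 change of -1.48 (adjusted p = 0.0337), the protocadherin Pcdh9 with -1.54 (adjusted p = 0.0127), the transcription factor Cebpd with -1.51 (adjusted p = 0.0334) and Cables1 with -1.42 (adjusted p = 0.045). In Cluster 6 the median mitochondrial share per cell was 3.27, 3.04, 0.988 and 0.831% at 7 d and 3.58, 2.18 and 2.11% uninjured, which overlap. Within each replicate every injured animal lay below every uninjured one. In Cluster 10 it was 2.59, 2.59, 1.8 and 2.31% at 7 d and 3.86, 5.83 and 4.76% uninjured, without overlap. The part of these shares in the falls was not tested.

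**Figure D1:**
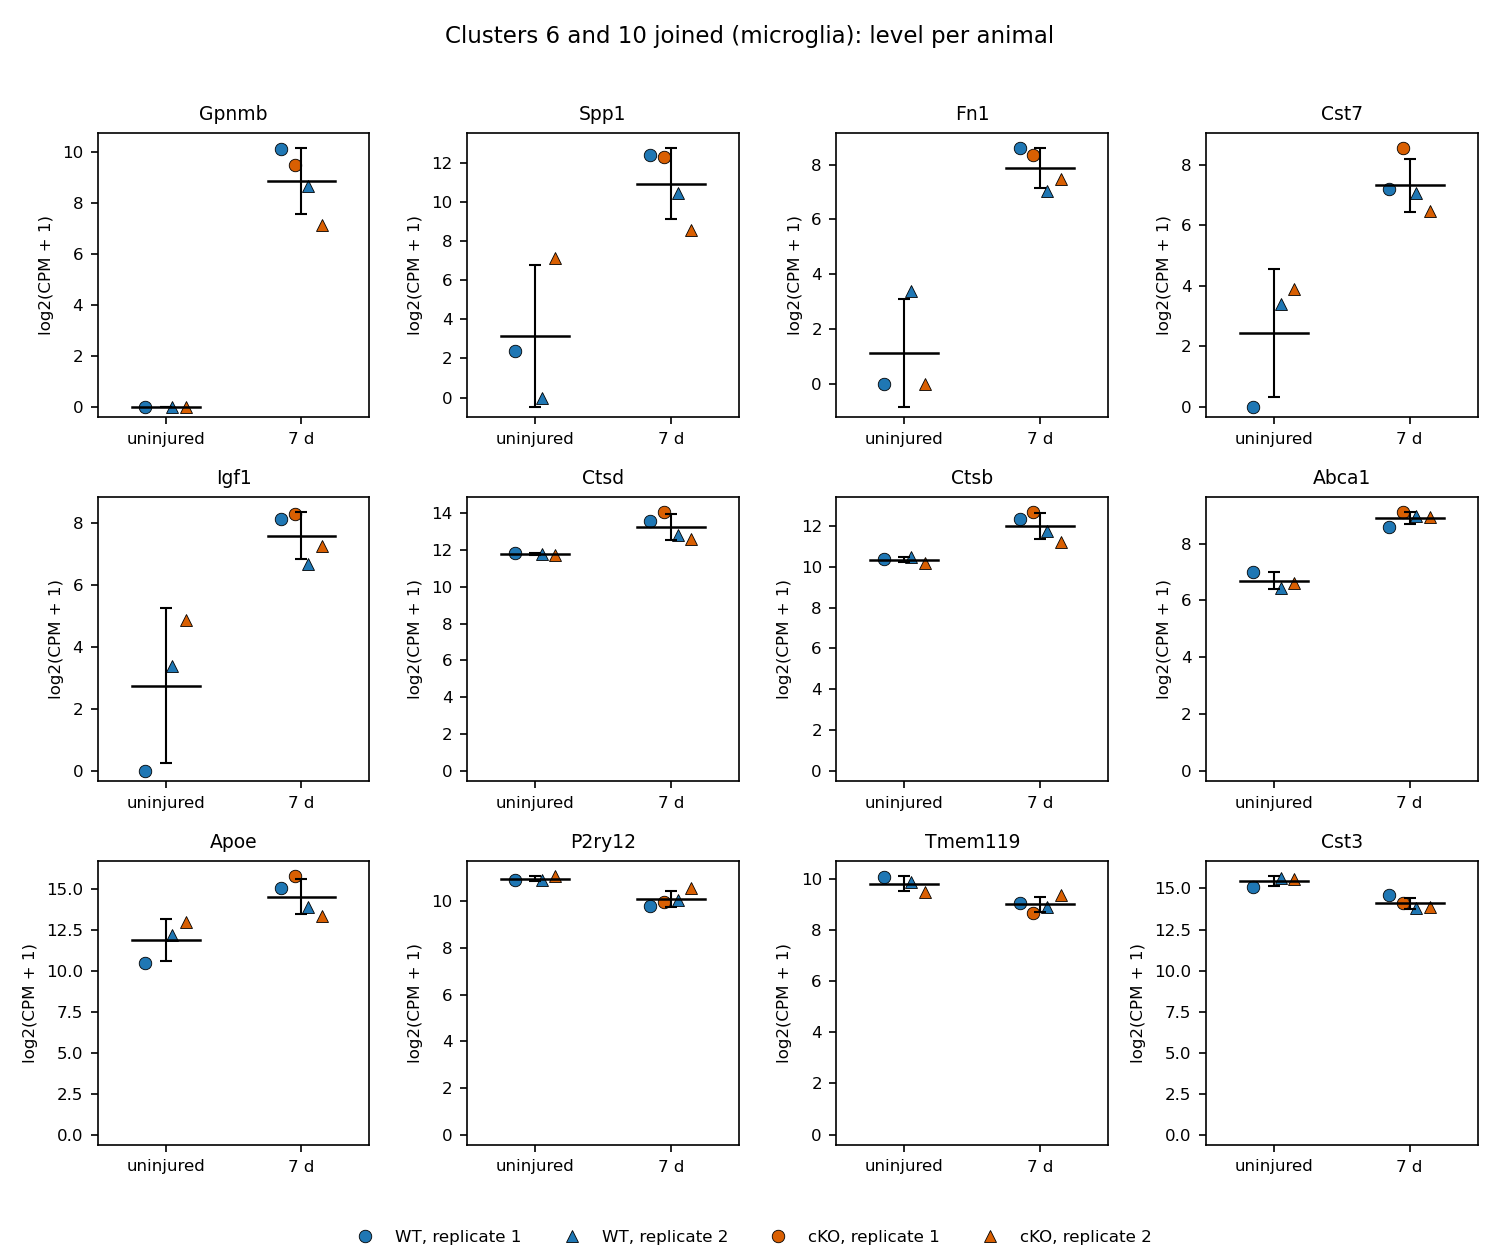
Levels of 12 genes in Clusters 6 and 10 joined, as log2(CPM + 1) on the vertical axis, for 3 uninjured animals and 4 animals at 7 d. Points are single animals, coloured by genotype and shaped by replicate, and bars give the mean and SD; Gpnmb is at 0 in every uninjured animal, and P2ry12 and Tmem119 are lower at 7 d without passing the test.

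The joined microglia were set beside markers of other cells: the 10 immune markers made up 0.396, 0.477, 0.152 and 0.39% of UMIs at 7 d and 0.0772, 0.0771 and 0.12% uninjured, with Lyz2 the most abundant and 1 of them at 0 (Cd3e). Lyz2 and Ms4a7, which that list holds, are among the genes described above. For myelin-forming cells the 8 oligodendrocyte markers made up 0.202, 0.173, 0.241 and 0.142% of UMIs at 7 d and 0.179, 0.239 and 0.296% uninjured, with Mbp the most abundant and none at 0. These lists did not enter the fit, and their part in the result was not tested. The microglial markers themselves made up 1.86, 1.68, 1.79 and 1.52% of UMIs at 7 d and 2.25, 1.86 and 1.88% uninjured. Without the 2 libraries named for another time point, 43 genes were called, and 18 of 30 of the called genes named here passed. With no block for the series 19 were called, and 15 of 30 of the genes named here passed. Leaving out 1 animal moved the count past 1.5 times to 24 without cKO 7 d replicate 1, 290 without WT uninjured replicate 1 and 31 without WT 7 d replicate 2. Without WT uninjured replicate 1, both remaining uninjured animals are of replicate 2. Gpnmb, Fn1, Spp1, Apoc1 and Abca1 passed whichever animal was left out. The call of Ctsb ended without cKO 7 d replicate 1, cKO uninjured replicate 2 or WT 7 d replicate 2. That of Ctsd ended without cKO 7 d replicate 1, WT 7 d replicate 1, cKO uninjured replicate 2 or WT 7 d replicate 2, and that of Cst3 without cKO 7 d replicate 1, cKO uninjured replicate 2, cKO 7 d replicate 2 or WT 7 d replicate 2. Over the fits that left out 1 animal, the fewest called genes named here that passed were 13 of 28 without cKO 7 d replicate 1.

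Cluster 6, microglia led by P2ry12, Siglech and Cx3cr1, was also tested alone. There 22 of 4405 genes were called (0.499%), 12 higher and 10 lower. Abca1 was at 516, 359.9, 328 and 386 CPM at 7 d and 121, 132 and 94.4 CPM uninjured (log2 change 1.78, SE 0.31, adjusted p = 0.00551). Ifi27l2a, an interferon-induced gene, was at 239, 209.9, 82.8 and 133 CPM at 7 d and 24.3, 0 and 11.8 CPM uninjured (log2 change 3.35, SE 0.51, adjusted p = 0.00221). All injured animals lay above all uninjured ones for both. The interferon-induced Ifi204 had a pooled ratio of 31.9-fold (95% counting interval 5.59 to 1271) with adjusted p = 0.0213, and the lipoprotein lipase Lpl of 10.4-fold (95% counting interval 3.46 to 51.3) with adjusted p = 0.0383. Lgals3bp (1.81, adjusted p = 0.036), the cholesterol exporter Abcg1 (2.78, adjusted p = 0.036), the chemokine Ccl3 (2.35, adjusted p = 0.0473), Nrp1 (1.45, adjusted p = 0.025) and the ribosomal protein gene Rpl23a (1.76, adjusted p = 0.00251) rose as well, given as log2 changes. Rpl23a has processed copies in the genome that 3′ reads may not tell apart. mt-Atp8 (-1.80, adjusted p = 0.0014) and mt-Rnr2 (-1.28, adjusted p = 0.0412) fell. Of 25 interferon response genes 10 were tested, 2 were higher and 0 lower by edgeR, with a median log2 change of 0.55 beside -0.003 over all genes. In the joined microglia 13 of that list were tested, 1 was higher and 0 lower, with a median of 0.11. In Cluster 10, 2 were tested and 0 called. Of the damage-associated list 21 genes were tested in Cluster 6, 2 were higher and 0 lower, with a median of 0.52. P2ry12 (-0.49, adjusted p = 0.672), Tmem119 (-0.46, adjusted p = 0.701) and Apoe (2.08, adjusted p = 0.399) did not pass. Without the 2 libraries named otherwise 9 genes were called, with no block 3, and leaving out 1 animal gave 12 without WT 7 d replicate 1, 284 without WT uninjured replicate 1, 13 without cKO uninjured replicate 2, 14 without WT uninjured replicate 2, 9 without cKO 7 d replicate 2 and 7 without WT 7 d replicate 2. With 1 animal left out, the fewest called genes named here that passed were 4 of 11 without WT uninjured replicate 2 and 4 of 7 without WT 7 d replicate 2. The count was 2 of 11 without the libraries named otherwise and 3 of 11 with no block.

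Cluster 10 held 175, 66, 36 and 48 cells at 7 d and 0, 13, 16 and 28 uninjured, and its cells were clustered on the genes described here, so its levels depend on which cells were placed in it. Within it 35 of 673 genes were called (5.2%), 20 higher and 15 lower. Time points did not overlap for 28 of these calls and for 130 of all 673 genes tested. Damage-associated genes had 8 of 27 tested members higher and 0 lower (median log2 change 1.26, all genes 0.0062), lysosome genes had 5 of 24 higher, and homeostatic genes had 2 of 15 lower. Ctsd and Ctsb are counted in the damage-associated and the lysosome list alike. Gpnmb (at least 28.2-fold, adjusted p = 0.00999), Fn1 (at least 13.5-fold, adjusted p = 0.0115) and Cst7 (at least 9.41-fold, adjusted p = 0.0177) were at 0 in the uninjured cells of this cluster and higher at 7 d. Ctsb was at 12692, 11140, 7737 and 8668.5 CPM at 7 d and 2544, 3058 and 2630 CPM uninjured (log2 change 1.80, SE 0.25, adjusted p = 0.00634), and Ctsd rose by 1.70 (adjusted p = 0.0177), the lysosomal carboxypeptidase Ctsa by 1.54 (adjusted p = 0.0424) and the progranulin gene Grn by 1.31 (adjusted p = 0.0226) on the log2 scale. The groups did not overlap for these 4 genes. Ctnnb1, which encodes beta-catenin of the canonical Wnt pathway, rose from 3 UMIs in uninjured cells to 177, a pooled ratio of 6.97-fold (95% counting interval 2.35 to 34.1) with adjusted p = 0.0424. It was the 1 member tested here of a list of 34 Wnt and Ryk genes. Of that list 0 of 5 tested genes were called in Cluster 6 (median log2 change -0.27) and 0 of 5 in the joined microglia (median -0.0069). Cst3 was at 13934, 13681, 14563 and 16596 CPM at 7 d and 50151, 71901 and 95483 CPM uninjured (log2 change -2.21, SE 0.29, adjusted p = 0.00634), and injured animals held less than uninjured ones in every case. Selplg, the P-selectin ligand, fell (log2 change -1.69, adjusted p = 0.0115), as did Hpgd, which breaks down prostaglandins (-1.86, adjusted p = 0.0177), the immediate early gene Junb (-1.66, adjusted p = 0.0373) and the chloride channel gene Clic1 (-1.31, adjusted p = 0.0441). Once the 2 libraries named otherwise were left out, 2 genes were called, with no block 23, and leaving out 1 animal gave 17 without cKO 7 d replicate 1, 62 without WT uninjured replicate 1, 20 without WT uninjured replicate 2, 17 without cKO 7 d replicate 2 and 7 without WT 7 d replicate 2. Over fits without 1 animal, the fewest called genes named here that passed were 5 of 12 without WT 7 d replicate 2. It was 0 of 13 without the libraries named otherwise and 9 of 13 with no block. In Cluster 10 the 10 immune markers made up 0.642, 0.986, 0.309 and 0.818% of UMIs at 7 d and 0.132, 0.153 and 0.289% uninjured, with Lyz2 the most abundant and 2 of them at 0 (Ccr2 and Cd3e), and their part in the result was not tested.

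The share of cells in the microglial clusters was higher at 7 d in value. Cluster 10 made up 9.8, 5.49, 2.37 and 5.71% at 7 d and 0, 1.33, 1.29 and 2.02% uninjured. The 0 came from 208 cells, which allows a share of up to 1.44%. Each injured animal lay above each uninjured one, with means of 5.84% (SD 3.05, n = 4) and 1.16% (SD 0.844, n = 4), a difference of 4.68 percentage points. Its exact permutation p of 0.0286 (two-sided) is the smallest that 70 arrangements can give, and after adjustment over 17 clusters it was 0.486, which did not pass. Cluster 6 made up 22.5, 13.5, 3.22 and 6.31% at 7 d and 2.88, 8.06, 1.78 and 2.82% uninjured (difference 7.48 points, exact permutation p = 0.171). That difference was 3.78 without cKO 7 d replicate 1. In both clusters each injured animal lay above each uninjured one of its own replicate. Permutation within the series gave an exact p of 0.0556 for each, the smallest that 36 arrangements can give. Joined, they made up 32.3, 19, 5.59 and 12% at 7 d and 2.88, 9.39, 3.07 and 4.84% uninjured, for which no test was run. Injured and uninjured animals overlapped in the joined share, where cKO 7 d replicate 2 lay below WT uninjured replicate 1. Cluster 10 was 30.4, 28.9, 42.4 and 47.5% of the joined microglia at 7 d and 0, 14.1, 42.1 and 41.8% uninjured, where the 0 rests on 6 microglia in all, and within replicate 2 its part of the microglia differed little between time points. The difference in Cluster 10 was 4.77 points without the 2 libraries named otherwise. It was 6.98 points in replicate 1 alone, 2.38 in replicate 2 alone and 7.03 with cells of at least 500 UMIs. In Cluster 6 the difference was 12.5 points in replicate 1 alone and 2.47 in replicate 2 alone.

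**Figure D2:**
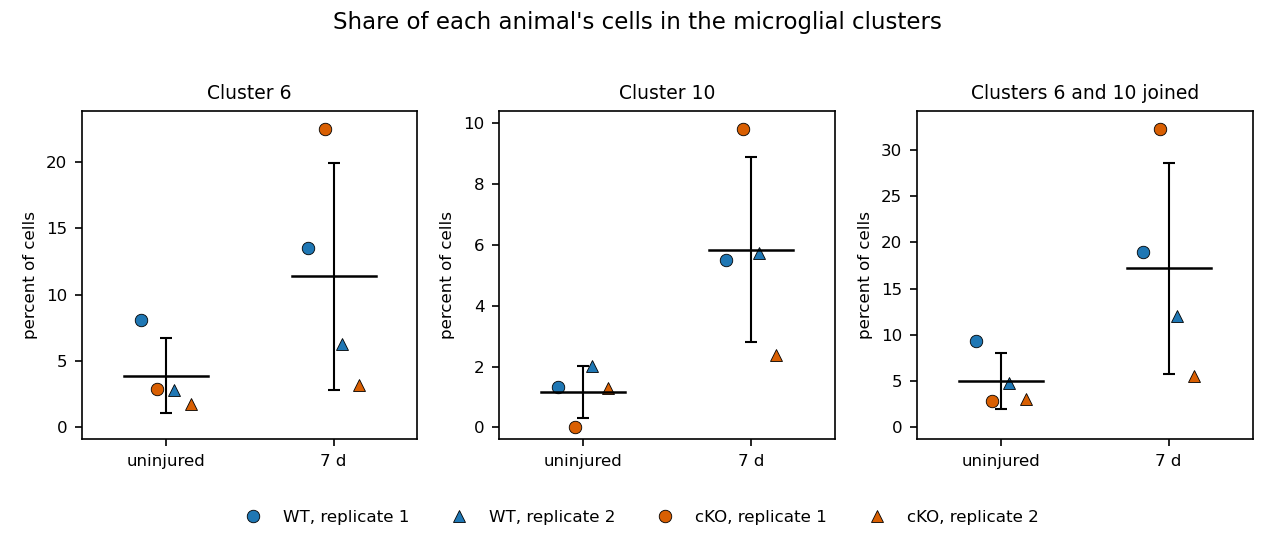
Percent of each animal's cells on the vertical axis that fell in Cluster 6, Cluster 10 and both joined, in 4 uninjured animals and 4 animals at 7 d. Points are animals, coloured by genotype and shaped by replicate, with the mean and SD; Cluster 10 is at 2.37% or more at 7 d and at 2.02% or less without injury.

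Among clusters that the authors assigned to astrocytes, Gfap passed the test in Cluster 7. Gfap, the intermediate filament protein of reactive astrocytes (chromosome 11, 102887336 to 102900912), was at 1083, 637, 545 and 1011 CPM at 7 d and 366, 172, 279.6 and 303 CPM uninjured (log2 change 1.58, SE 0.28, adjusted p = 0.0156). Every injured animal lay above every uninjured one. Mfsd2a, a lipid transporter best known from the barrier endothelium (chromosome 4, 122946850 to 122961188), was at 203, 67, 158 and 123 CPM at 7 d and 398, 452, 456 and 444 CPM uninjured (log2 change -1.65, SE 0.24, adjusted p = 0.00604), with all 4 uninjured animals close together and all injured ones below them. In all, 11 of 2952 genes were called in Cluster 7 (0.373%), 2 higher and 9 lower. The mitochondrial outer membrane protein gene Cisd1 (-1.81, adjusted p = 0.0443), the ATP synthase component Atp5md (-1.80, adjusted p = 0.0215), the endoplasmic reticulum protein gene Selenok (-1.60, adjusted p = 0.0293) and the proton pump subunit Atp6v0b (-1.40, adjusted p = 0.0396) fell without overlap, given as log2 changes. The second gene called higher was mt-Nd3, a complex I subunit encoded in mitochondria (1.90, adjusted p = 0.0396), whose groups overlapped and which reached 3588 CPM in cKO 7 d replicate 1. Of 30 reactive astrocyte genes 3 were tested, and Gfap was the 1 called. The median log2 change of these 3, 1.58, was the value of Gfap itself, beside -0.0034 over all genes. The complement gene C4b, at 135, 101, 84.5 and 21.1 CPM at 7 d and 79.6, 8.61, 14.7 and 10.1 CPM uninjured, did not pass (log2 change 2.19, SE 0.72, adjusted p = 0.183), and the water channel Aqp4, at 2234, 2313, 1703 and 1772 CPM at 7 d and 939, 1631, 1677 and 1666 CPM uninjured, did not either (log2 change 0.40, SE 0.21, adjusted p = 0.546), though its groups did not overlap. The Gfap call ended without cKO uninjured replicate 2, WT uninjured replicate 2 or WT 7 d replicate 2, and so did that of Mfsd2a, with the direction kept. After leaving out the 2 libraries named otherwise, 0 (118) genes were called by edgeR, and DESeq2 on all animals called 10. With no block 3 were called, and leaving out 1 animal gave 92 without WT 7 d replicate 1, 100 without WT uninjured replicate 1, 1 without cKO uninjured replicate 2, 0 (239) without WT uninjured replicate 2, 2 without cKO 7 d replicate 2 and 1 without WT 7 d replicate 2. In fits that left out 1 animal, the fewest called genes named here that passed were 0 of 6 without cKO uninjured replicate 2 and 0 of 7 without WT uninjured replicate 2 or without WT 7 d replicate 2. The count was 0 of 5 without the libraries named otherwise and 2 of 7 with no block.

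Cluster 5, astrocytes led by Aldoc and Mt3, gave 40 calls of 1844 genes (2.17%), 3 higher and 37 lower. Gfap was at 4813, 2804, 1464 and 1514 CPM at 7 d and 737, 1092 and 1108.5 CPM uninjured, which did not pass (log2 change 1.05, SE 0.31, adjusted p = 0.0657), although each injured animal lay above each uninjured one. It passed without WT 7 d replicate 1. A difference in the Gfap change between Clusters 5 and 7 was not tested. Of 13 mitochondrially encoded genes 2 were higher and 3 lower. mt-Nd3 (1.68, adjusted p = 0.00105) and mt-Nd6 (1.28, adjusted p = 0.0269) rose, and mt-Co2 (-1.87, adjusted p = 0.000988), mt-Co3 (-1.33, adjusted p = 0.0259) and mt-Atp8 (-1.01, adjusted p = 0.0424) fell, with overlap between time points in each. The median mitochondrial share per cell was 6.54, 5.16, 10.1 and 12.6% at 7 d and 10.6, 15.4 and 12.8% uninjured. It was lower at 7 d within each replicate, and its part in these changes was not tested. Ndufb11, a complex I subunit, was at 128, 156, 219 and 109.9 CPM at 7 d and 239, 376 and 536 CPM uninjured (log2 change -1.23, SE 0.30, adjusted p = 0.0116), and the homeodomain gene Hopx was at 85.2, 156, 95.3 and 134 CPM at 7 d and 259, 164 and 333 CPM uninjured (log2 change -1.22, SE 0.34, adjusted p = 0.0428). These were the 2 calls of the cluster without overlap, against 47 of all 1844 genes tested. Beside them, the 8 oligodendrocyte markers made up 0.373, 0.225, 1.74 and 1.72% of UMIs at 7 d and 0.242, 1.85 and 1.46% uninjured, with Mbp the most abundant and none at 0, higher in replicate 2 at both time points, and their part was not tested. When the 2 libraries named otherwise were left out, 3 genes were called and with no block 0 (14) by edgeR, while DESeq2 on all animals called 13. Leaving out 1 animal gave 153 without WT uninjured replicate 1, 24 without cKO uninjured replicate 2, 15 without WT uninjured replicate 2 and 9 without cKO 7 d replicate 2. With 1 animal left out, the fewest called genes named here that passed were 1 of 7 without WT uninjured replicate 2 or cKO 7 d replicate 2. It was 0 of 6 without the libraries named otherwise and 0 of 7 with no block.

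Cluster 2 held UMIs of several cell types, and its comparison rested on 3 animals against 3. There 48 of 1207 genes were called (3.98%), 20 higher and 28 lower. The replicate 1 animals gave few UMIs here, 4570 in WT 7 d replicate 1 and 8218 in WT uninjured replicate 1, where 0 counts allow up to 656 and 365 CPM before scaling. Genes higher without overlap included the calcium-binding protein gene Hpcal4 (1.97, adjusted p = 0.00925), Nnat (1.84, adjusted p = 0.0311), Ahi1 (1.70, adjusted p = 0.0204), Gprasp1 (1.60, adjusted p = 0.0204) and the presynaptic scaffold gene Pclo (1.38, adjusted p = 0.0483) in log2. Each of these 5 had 0 to 2 UMIs in either replicate 1 animal. Nefh, a neurofilament gene, was at 0, 1838 and 3527 CPM at 7 d and 1525, 384 and 491 CPM uninjured (log2 change 2.04, SE 0.52, adjusted p = 0.0208). Both injured animals of replicate 2 lay above both uninjured ones, and in replicate 1 the order was the opposite. Fth1, the ferritin heavy chain, was at 7558, 25949 and 31211 CPM at 7 d and 33049, 95721 and 60286 CPM uninjured (log2 change -1.64, SE 0.37, adjusted p = 0.00953), lower in each injured animal than in each uninjured one. Of 20 myelin genes 10 were tested, 0 were higher and 4 lower (median log2 change -1.19, all genes -0.023). Mbp, the myelin basic protein, fell (log2 change -1.56, adjusted p = 0.0204), as did Mobp (-1.71, adjusted p = 0.025), with overlap in both. In this cluster the 8 oligodendrocyte markers made up 0.416, 1.54 and 2.32% of UMIs at 7 d and 1.08, 3.53 and 2.55% uninjured, with Mbp the most abundant and none at 0. The neuronal markers made up 0.0875, 0.403 and 0.442% of UMIs at 7 d and 0.243, 0.137 and 0.132% uninjured. Further, the 8 endothelial markers made up 1.33, 0.0363 and 0.00658% of UMIs at 7 d and 0.511, 0.0125 and 0.0066% uninjured, with Flt1 the most abundant and none at 0. The part of these other cell types in the calls was not tested. Without the 2 libraries named otherwise 0 (25) genes were called by edgeR and with no block 1 was, while DESeq2 on all animals called 69. In this cluster, leaving out 1 animal gave 85 without WT uninjured replicate 1, 0 (89) without cKO uninjured replicate 2, 10 without WT uninjured replicate 2, 0 (121) without cKO 7 d replicate 2 and 87 without WT 7 d replicate 2. Over fits without 1 animal, the fewest called genes named here that passed were 0 of 9 without cKO uninjured replicate 2 or cKO 7 d replicate 2. The count was 0 of 8 without the libraries named otherwise and 0 of 9 with no block.

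In oligodendrocytes, 1 gene of the injury response list was called higher in each cluster, Serpina3n in Cluster 8 and Klk6 in Cluster 4. Both genes were among the 10 leading genes of Cluster 8, with Klk6 the first. Their levels can thus depend on which cells were placed in each cluster, and this was not tested. Serpina3n, a secreted serine protease inhibitor (chromosome 12, 104406729 to 104414329), was at 2688, 1884, 188 and 336 CPM at 7 d and 74.9, 0 and 32.1 CPM uninjured in Cluster 8 (log2 change 4.67, SE 0.76, adjusted p = 0.0101). Each injured animal lay above each uninjured one, and the levels of replicate 1 at 7 d were well above those of replicate 2. Of 20 oligodendrocyte injury genes 8 were tested in Cluster 8, 1 was higher and 0 lower, with a median log2 change of 0.43 beside -0.018 over all genes. In all 2 of 1285 genes were called (0.156%). The other was CT010467.1, a transcript of ribosomal RNA sequence, which fell (log2 change -3.01, adjusted p = 0.0297) with overlap and was most abundant in the uninjured animals of replicate 2. The myelin gene Mbp (log2 change -1.36, adjusted p = 0.757) did not pass. The Serpina3n call ended without cKO uninjured replicate 2 or WT 7 d replicate 2, and without the block for series. Once the 2 libraries named otherwise were left out, 0 (71) genes were called by edgeR and with no block 0 (70), while DESeq2 on all animals called 22. In the same fit, leaving out 1 animal gave 4 without cKO 7 d replicate 1, 1 without WT 7 d replicate 1, 259 without WT uninjured replicate 1, 0 (74) without cKO uninjured replicate 2, 1 without WT uninjured replicate 2, 1 without cKO 7 d replicate 2 and 0 (60) without WT 7 d replicate 2. In Cluster 8 the 8 astrocyte markers made up 0.0526, 0.0669, 0.157 and 0.386% of UMIs at 7 d and 0.0455, 0.261 and 0.335% uninjured, with Aldoc the most abundant and none at 0, and their part was not tested.

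In Cluster 4, oligodendrocytes led by Ptgds and Opalin, 10 of 2528 genes were called (0.396%), 1 higher and 9 lower. The gene that rose was Klk6, a serine protease of myelinating cells (chromosome 7, 43824499 to 43832030), at 707, 697, 17.2 and 55 CPM at 7 d and 86.9, 113, 0 and 30.9 CPM uninjured (log2 change 2.48, SE 0.51, adjusted p = 0.0414). The injured animals of replicate 1 were far above the rest, and those of replicate 2 overlapped the uninjured ones. Of 8 injury genes tested 1 was higher and 0 lower, with a median log2 change of 0.25 beside -0.016 over all genes. Several genes that fell mark other cell types: the endothelial claudin Cldn5 at 14, 0, 34.4 and 31.4 CPM at 7 d and 116, 103, 202 and 155 CPM uninjured (log2 change -2.65, SE 0.50, adjusted p = 0.0216), the neuronal genes Snap25 (-2.66, adjusted p = 0.0133) and Nefl (-2.48, adjusted p = 0.0252), and the astrocyte genes Sparcl1 (-2.16, adjusted p = 0.0133) and Mt3 (-2.37, adjusted p = 0.0133), given as log2 changes. Cldn5 was the 1 call without overlap, against 59 of all 2528 genes tested. Gm42418 (-2.37, adjusted p = 0.0133), Gm15564 (-2.43, adjusted p = 0.0133), CT010467.1 (-2.03, adjusted p = 0.0409) and C230004F18Rik (-2.35, adjusted p = 0.0133), none of them a known protein-coding gene, fell too. Beside these falls, the 8 astrocyte markers made up 0.0444, 0.0314, 0.108 and 0.108% of UMIs at 7 d and 0.148, 0.0516, 0.266 and 0.271% uninjured, with Slc1a2 the most abundant and none at 0. In the same cluster the 8 neuron markers made up 0.0222, 0.012, 0.0448 and 0.0998% of UMIs at 7 d and 0.116, 0.0209, 0.169 and 0.175% uninjured, with Meg3 the most abundant and none at 0, and the 8 endothelial markers made up 0.0245, 0.00299, 0.0395 and 0.018% of UMIs at 7 d and 0.0436, 0.0381, 0.056 and 0.0802% uninjured, with Flt1 the most abundant and none at 0. All 3 lists were highest in the uninjured animals of replicate 2, and their part in the result was not tested. Mbp (log2 change -0.41, adjusted p = 0.905) did not pass. The Klk6 call held in no fit that left out 1 animal: it ended without WT 7 d replicate 1, cKO uninjured replicate 1, cKO uninjured replicate 2 or WT uninjured replicate 2, and in the other 4 the gene was not tested. After leaving out the 2 libraries named otherwise, 0 (96) genes were called by edgeR and with no block 0 (122), while DESeq2 on all animals called 28. For this cluster, leaving out 1 animal gave 5 without WT 7 d replicate 1, 31 without WT uninjured replicate 1, 23 without cKO uninjured replicate 1, 0 (155) without cKO uninjured replicate 2, 0 (165) without WT uninjured replicate 2, 2 without cKO 7 d replicate 2 and 0 (109) without WT 7 d replicate 2. In fits that left out 1 animal, the fewest called genes named here that passed were 0 of 10 without cKO uninjured replicate 2 or without WT uninjured replicate 2, 0 of 9 without cKO 7 d replicate 2 and 0 of 8 without WT 7 d replicate 2. It was 0 of 9 without the libraries named otherwise and 0 of 10 with no block.

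Neurons (Cluster 3) had the highest number of calls of the 11 clusters, 230 of 3872 genes (5.94%), 34 higher and 196 lower. Time points did not overlap for 50 of these calls and for 180 of all 3872 genes tested. Genes of the lysosome and glycolysis lists were among those that fell: 5 of 10 tested lysosome genes were lower and 0 higher (median log2 change -1.19), and 4 of 14 glycolysis genes were lower and 0 higher (median -0.77), beside a median of -0.0068 over all genes. Psap, the precursor of lysosomal saposins, was at 183, 45.7, 315 and 234 CPM at 7 d and 369.6, 450.3, 608 and 957 CPM uninjured (log2 change -1.55, SE 0.29, adjusted p = 0.00449), and the lysosomal membrane gene Lamp1 fell (log2 change -1.59, adjusted p = 0.00607). All injured animals lay below all uninjured ones for both genes, while the proteases Ctsd (-1.48, adjusted p = 0.0102), Lgmn (-1.41, adjusted p = 0.022) and Ctsb (-1.04, adjusted p = 0.0446) fell with overlap. The glycolytic genes Aldoa (-1.21, adjusted p = 0.0276), Pgk1 (-1.59, adjusted p = 0.0291), Ldhb (-1.18, adjusted p = 0.0364) and Aldoc (-1.28, adjusted p = 0.0353) also fell with overlap. Of 5 cholesterol synthesis genes tested, 2 fell and 0 rose: Hmgcs1, which feeds the pathway (-1.64, adjusted p = 0.00532), and Msmo1 (-1.71, adjusted p = 0.0118). The chaperone Hspa8 fell (log2 change -1.36, adjusted p = 0.0108). Lists made for other cell types held lower genes too. Of 6 damage-associated genes tested in neurons 4 were lower and 0 higher (median log2 change -1.08), with Ctsd and Ctsb among them. Of 12 barrier genes tested 2 were lower and 0 higher (median -0.39).

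Of 24 synaptic genes 17 were tested, 0 were higher and 1 was lower, with a median log2 change of 0.019. The one that fell was Slc17a6, the vesicular glutamate transporter of spinal excitatory neurons (chromosome 7, 51622006 to 51671119), at 60.9, 0, 50.6 and 44.2 CPM at 7 d and 75.7, 111, 163 and 95.7 CPM uninjured (log2 change -1.39, SE 0.40, adjusted p = 0.0368). Thy1, a surface glycoprotein of projection neurons (chromosome 9, 44043384 to 44048579), was at 0, 0, 72.3 and 60 CPM at 7 d and 137, 150.1, 197 and 231 CPM uninjured (log2 change -1.87, SE 0.36, adjusted p = 0.00479). Jund, a subunit of the AP-1 transcription factor (chromosome 8, 70698949 to 70700616), was at 60.9, 0, 82.4 and 44.2 CPM at 7 d and 102, 83.4, 368 and 311 CPM uninjured (log2 change -2.25, SE 0.36, adjusted p = 0.00133). The groups did not overlap for these 3 genes. The zeros rest on few UMIs: neurons of cKO 7 d replicate 1 and WT 7 d replicate 1 gave 35472 and 22414 UMIs, where 0 counts allow up to 84.6 and 134 CPM before scaling. Lamp5 (-2.20, adjusted p = 0.00142), Endod1 (-2.09, adjusted p = 0.00142), the protein disulfide isomerase Pdia3 (-1.89, adjusted p = 0.00506), Rabac1 (-1.89, adjusted p = 0.00532), the G protein subunit Gng3 (-1.76, adjusted p = 0.0108) and Tmx2 (-1.76, adjusted p = 0.00638) fell without overlap, given as log2 changes. Nefl, the light neurofilament, fell with overlap (log2 change -1.15, adjusted p = 0.0346). Snap25 (-0.85, adjusted p = 0.057) and the synaptic vesicle sensor Syt1 (0.52, adjusted p = 0.292) did not pass.

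Fewer neuronal genes rose. Arhgap24, a GTPase-activating protein, was at 183, 229, 173 and 145 CPM at 7 d and 90.2, 72.3, 77.1 and 63.8 CPM uninjured (log2 change 1.22, SE 0.33, adjusted p = 0.0276). Pnisr, a splicing-associated gene, was at 1187, 1006, 719.7 and 969 CPM at 7 d and 413, 706, 368 and 574 CPM uninjured (log2 change 0.91, SE 0.26, adjusted p = 0.0403). Every injured animal lay above every uninjured one for both, and so it was for the ciliary transport gene Wdr35 (1.72, adjusted p = 0.0291), Stac (1.42, adjusted p = 0.0495) and Ttc17 (1.05, adjusted p = 0.0419). mt-Nd3 rose by 2.10 (adjusted p = 0.0275) with overlap. Median UMIs per neuron were 404, 317, 2599.5 and 2107 at 7 d and 1652.5, 1254, 1139 and 1160 uninjured. Neuronal markers made up 1.94, 2.25, 0.785 and 0.999% of UMIs at 7 d and 1.87, 1.39, 0.357 and 0.614% uninjured, higher at 7 d within each replicate. Among other cell types, the 8 oligodendrocyte markers made up 0.716, 0.535, 1.14 and 0.698% of UMIs at 7 d and 0.734, 0.686, 1.28 and 1.19% uninjured, with Mbp the most abundant and none at 0, and the 8 red blood cell markers made up 0.0282, 0.0446, 0.734 and 0.012% of UMIs at 7 d and 0.0193, 0.0049, 0.0182 and 0.0613% uninjured, with Hbb-bs the most abundant and none at 0. There, the 8 astrocyte markers made up 0.0902, 0.0446, 0.243 and 0.119% of UMIs at 7 d and 0.17, 0.103, 0.177 and 0.192% uninjured, with Slc1a2 the most abundant and none at 0. Of the homeostatic astrocyte list 16 genes were tested, 0 were higher and 2 lower, Glul and Aldoc (median log2 change -0.61). The part of depth and of these markers in the calls was not tested. When the 2 libraries named otherwise were left out, 6 genes were called. With no block 0 (316) were called by edgeR, and DESeq2 on all animals called 146. Leaving out 1 animal gave 137 without WT 7 d replicate 1, 360 without WT uninjured replicate 1, 14 without cKO uninjured replicate 2, 40 without WT uninjured replicate 2 and 20 without WT 7 d replicate 2. With 1 animal left out, the fewest called genes named here that passed were 4 of 29 without cKO uninjured replicate 2. The count was 0 of 29 without the libraries named otherwise and 0 of 29 with no block.

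Endothelial cells (Cluster 1) had the most genes tested, and 51 of 7343 were called (0.695%), 6 higher and 45 lower. Time points did not overlap for 19 of these calls and for 401 of all 7343 genes tested. Genes of the blood-spinal cord barrier and of vessel activation did not pass: 0 of 20 barrier genes and 0 of 19 activation and angiogenesis genes were called by edgeR, and their median log2 changes were -0.075 and 0.013 beside -0.0055 over all genes. Cldn5, the tight junction claudin, was at 2380.2, 3074, 2599.5 and 2038 CPM at 7 d and 2916, 2778, 4262 and 4383 CPM uninjured (log2 change -0.48, SE 0.26, adjusted p = 0.324), and the Vegf receptor Flt1 (0.27, adjusted p = 0.593) and the adhesion molecule Pecam1 (0.06, adjusted p = 0.892) did not pass either. Among the genes that rose, Rgs16, a regulator of G protein signalling (chromosome 1, 153740349 to 153745468), was at 44.4, 46.3, 32.3 and 29.6 CPM at 7 d and 7.61, 15.5, 13.2 and 2.83 CPM uninjured (log2 change 1.74, SE 0.38, adjusted p = 0.0488). The zinc finger gene Zfp521 was at 109, 145, 127 and 135 CPM at 7 d and 45.7, 56.1, 57.3 and 79.2 CPM uninjured (log2 change 1.07, SE 0.22, adjusted p = 0.0375). Neither overlapped between time points. Scaper (0.96, adjusted p = 0.0432) and the long non-coding RNA Kcnq1ot1 (1.22, adjusted p = 0.0375) rose as well, given as log2 changes.

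The endothelial genes that fell without overlap included the antioxidant enzyme Prdx6 (-1.55, adjusted p = 0.0375), the complex I subunits Ndufb5 (-1.43, adjusted p = 0.0343) and Ndufb9 (-1.22, adjusted p = 0.0243), the microtubule regulator Stmn1 (-1.29, adjusted p = 0.0488), Pomc (-1.38, adjusted p = 0.0427), Pam16 (-1.35, adjusted p = 0.0488) and Lsm6 (-1.33, adjusted p = 0.0408). The neurofilament gene Nefh was at 9.88, 5.79, 24.5 and 26.4 CPM at 7 d and 60.9, 42.6, 85.9 and 65.1 CPM uninjured (log2 change -1.74, SE 0.29, adjusted p = 0.0136). mt-Atp8 fell with overlap (log2 change -1.67, adjusted p = 0.0136). Genes of astrocytes and neurons were among the calls: 3 of 13 homeostatic astrocyte genes were lower and 0 higher (median log2 change -1.58). The astrocyte potassium channel Kcnj10 was at 9.88, 17.4, 46 and 23.3 CPM at 7 d and 22.8, 8.71, 174 and 286 CPM uninjured (log2 change -2.37, SE 0.42, adjusted p = 0.0182), highest in both uninjured animals of replicate 2, and Slc4a4 (-2.03, adjusted p = 0.00668), Ndrg2 (-2.31, adjusted p = 0.0136), Gfap (-1.90, adjusted p = 0.0288), Snap25 (-1.76, adjusted p = 0.0243) and Nefl (-1.43, adjusted p = 0.0178) fell with overlap. In these endothelial cells the 8 astrocyte markers made up 0.0248, 0.0131, 0.0614 and 0.0399% of UMIs at 7 d and 0.033, 0.0185, 0.157 and 0.204% uninjured, with Slc1a2 the most abundant and none at 0. Likewise the 8 oligodendrocyte markers made up 0.182, 0.105, 0.304 and 0.151% of UMIs at 7 d and 0.127, 0.0984, 0.739 and 0.757% uninjured, with Mbp the most abundant and none at 0, and the 8 neuron markers made up 0.0139, 0.0196, 0.0274 and 0.0304% of UMIs at 7 d and 0.0676, 0.0219, 0.0553 and 0.0558% uninjured, with Stmn2 the most abundant and none at 0. Their part in the falls was not tested. Without the 2 libraries named otherwise 0 (314) genes were called by edgeR and with no block 0 (908), while DESeq2 on all animals called 93. Leaving out the cells with shared barcodes gave 108, and leaving out 1 animal gave 81 without cKO 7 d replicate 1, 151 without WT 7 d replicate 1, 1157 without WT uninjured replicate 1, 22 without cKO uninjured replicate 1, 8 without cKO uninjured replicate 2, 3 without WT uninjured replicate 2, 0 (718) without cKO 7 d replicate 2 and 0 (716) without WT 7 d replicate 2. Over fits without 1 animal, the fewest called genes named here that passed were 0 of 19 without WT uninjured replicate 2, cKO 7 d replicate 2 or WT 7 d replicate 2. It was 0 of 17 without the libraries named otherwise and 0 of 19 with no block.

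Pericytes (Cluster 9) had 2 calls among 1837 genes (0.109%), both lower: Lars2 at 0, 115, 2144 and 1526 CPM at 7 d and 199, 181, 8601.5 and 8969 CPM uninjured (log2 change -2.18, SE 0.38, adjusted p = 0.0356) and CT010467.1 (adjusted p = 0.0356). Both transcripts were highest in the uninjured animals of replicate 2, in whose libraries Gm42418 was highest too, and the groups overlapped. The pericyte genes Rgs5 (0.26, adjusted p = 0.877) and Pdgfrb (0.06, adjusted p = 0.981) did not pass. Once the 2 libraries named otherwise were left out, 0 (26) genes were called by edgeR and with no block 0 (90), while DESeq2 on all animals called 5. For pericytes, leaving out 1 animal gave 0 (175) without cKO 7 d replicate 1, 4 without WT 7 d replicate 1, 1 without WT uninjured replicate 1, 5 without cKO uninjured replicate 1, 0 (116) without cKO uninjured replicate 2, 0 (88) without WT uninjured replicate 2 and 0 (68) without WT 7 d replicate 2. Oligodendrocyte precursors (Cluster 11) had 0 calls of 2311 genes by edgeR (0%), with 145 genes at an unadjusted p under 0.05 and 16 called by DESeq2. There, leaving out 1 animal gave 260 without WT uninjured replicate 1. In that last case both uninjured animals are of replicate 2.

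The clusters without a gene test are given as shares of cells. Fibroblasts (Cluster 14) made up 0.392, 2.91, 4.73 and 0.357% at 7 d and 0.481, 0.204, 0.485 and 0.723% uninjured, and Schwann cells (Cluster 15) 0, 1.08, 6.77 and 0.238% at 7 d and 0, 0, 0.646 and 0.434% uninjured. Both were highest in cKO 7 d replicate 2, without which the difference went from 1.62 to 0.746 points in Cluster 14 and from 1.75 to 0.17 in Cluster 15. Cluster 13 made up 1.74, 2.49, 1.18 and 0.952% at 7 d and 0.962, 0.714, 0.969 and 0.361% uninjured (difference 0.84 points, exact permutation p = 0.0857, adjusted 0.662), and the difference was 0.539 without WT 7 d replicate 1. Immune cells (Cluster 12) made up 1.9, 2.16, 1.45 and 0.714% at 7 d and 0, 0.612, 0.565 and 2.38% uninjured, and myeloid cells (Cluster 16) 0.392, 0.166, 2.17 and 0% at 7 d and 0.481, 0.102, 0 and 1.66% uninjured. None of the 17 shares passed after adjustment. A share of 0 allows up to 0.168% in cKO 7 d replicate 1, 0.357% in WT 7 d replicate 2, 1.44% in cKO uninjured replicate 1, 0.306% in WT uninjured replicate 1 and 0.242% in cKO uninjured replicate 2, at 3 cells each. Among the tested clusters, Cluster 2 made up 0.448, 1.16, 6.57 and 7.5% at 7 d and 2.4, 1.12, 20 and 19.4% uninjured (difference -6.83 points, exact permutation p = 0.314) and Cluster 5 3.19, 3.74, 12 and 10% at 7 d and 3.37, 3.57, 18.3 and 18.8% uninjured (difference -3.79 points, exact permutation p = 0.429). Replicate 2 held more of both than replicate 1 at each time point. In replicate 1 alone the difference was -0.957 points in Cluster 2 and -0.0023 in Cluster 5. In replicate 2 alone it was -12.7 points in Cluster 2 and -7.58 in Cluster 5. The difference moved to -3.73 without cKO uninjured replicate 2 and -3.93 without WT uninjured replicate 2 in Cluster 2. In Cluster 5 it moved to -2.45 without cKO 7 d replicate 1, -6.27 without WT uninjured replicate 1, -6.34 without cKO uninjured replicate 1, -1.35 without cKO uninjured replicate 2 and -1.2 without WT uninjured replicate 2. Oligodendrocyte precursors made up 7.45, 5.32, 1.97 and 2.62% at 7 d and 3.85, 4.9, 1.45 and 1.45% uninjured (difference 1.43 points, exact permutation p = 0.4). Within each replicate both injured animals lay above both uninjured ones, and permutation within the series gave the same exact p of 0.0556. This difference was 0.393 without cKO 7 d replicate 1, 0.943 without cKO uninjured replicate 2, 0.94 without WT uninjured replicate 2 and 2.22 without cKO 7 d replicate 2. In replicate 2 alone it was 0.846.

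Pooling the genotypes was tested by asking whether the change with injury differed between cKO and WT. In neurons 3 of 3872 genes were called by that interaction (0.0775%). The haemoglobin gene Hbb-bs was at 152, 274, 5600.4 and 18.9 CPM at 7 d and 43.7, 11.1, 137 and 367 CPM uninjured (cKO minus WT log2 change 6.66, SE 1.23, adjusted p = 0.00554), and Hba-a1 was at 60.9, 137, 1515 and 0 CPM at 7 d and 37.8, 11.1, 42.8 and 144 CPM uninjured (7.00, SE 1.26, adjusted p = 0.00554). Both were high in 1 animal, cKO 7 d replicate 2, whose red blood cell markers in neurons were given above. mt-Nd3 was at 7274, 1188, 436 and 458 CPM at 7 d and 66.9, 1685, 111 and 144 CPM uninjured (4.26, SE 0.89, adjusted p = 0.0271), and was highest in cKO 7 d replicate 1. In neurons DESeq2 called 0 (37) genes and edgeR with no block 0 (25). For these neurons, leaving out 1 animal gave from 0 (220) without WT 7 d replicate 2 to 24 without cKO uninjured replicate 2. In each other cluster and in joined microglia edgeR called 0 genes, with 8 to 171 at an unadjusted p under 0.05, while DESeq2 called 2 in Cluster 10, 1 in the joined microglia and 0 in the rest. In Clusters 2, 5, 6, 8, 10 and 11 and in joined microglia the cKO uninjured arm held 1 animal, with 1 to 2 residual degrees of freedom, so pooling was not checked there. Without the 2 libraries named otherwise, the cKO uninjured and WT 7 d arms held 1 animal each. Interaction counts are not given for that fit.

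**Figure D3:**
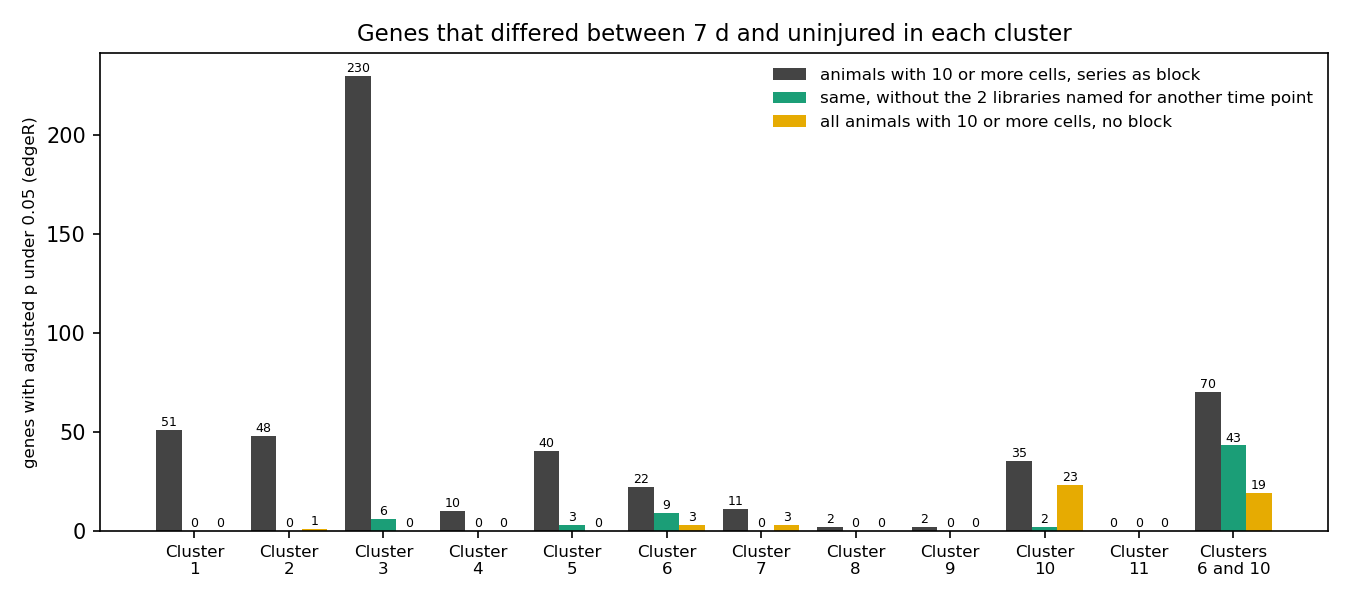
Number of genes with an edgeR adjusted p under 0.05 between 7 d and uninjured on the vertical axis, for each tested cluster and for Clusters 6 and 10 joined. Bars show the fit with the series as block, the same without the 2 libraries named for another time point, and all animals with no block; the joined microglia have 70, 43 and 19 calls in this order, and neurons 230, 6 and 0.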

How the data were processed

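Single-cell libraries of 4 animals at 7 d and 4 uninjured animals were used, 1 animal per library, with 649625 to 9008729 UMIs each. The counts in the matrix deposited by the authors are raw UMIs per gene and cell, which the authors made with Cell Ranger on mm10 from 10x 3′ libraries, with a limit of 25% mitochondrial UMIs and a minimum of 200 genes per cell. The percent values of mitochondrial and haemoglobin UMIs in the deposited cell table are shares of a cell's UMIs computed by the authors. Their clusters were made with Seurat 4.3.0.1 and Harmony 0.1.1. The cell table also holds the clusters before cells were moved between them, and the labels after the move were used here. In the series 1314 cells had been moved out of Cluster 2, 706 of them in the 8 libraries compared. The part of this move in the results was not tested. Before sums were taken, the matrix and the cell table were checked to have equal UMIs for all 18203 cells.

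UMIs were summed per animal and cluster with at least 10 cells in Python 3.11.15. Genes were filtered with filterByExpr by time point, scaled with TMM and tested with the quasi-likelihood F test of edgeR 4.0.16 in R 4.3.3, with animal series as block and time point as factor, and p was adjusted within each cluster by Benjamini-Hochberg. DESeq2 1.42.0 was the second tool. Shares of cells and quality measures were compared by a two-sided exact permutation test over 70 arrangements, or 36 within the series, and shares were adjusted over 17 clusters. In the 8 libraries compared, the series equals the authors' batch and the replicate number. As a check of the pairing, differences between replicates correlated above 0.1 across genes in 6 of 6 pairs of groups in neurons, 5 of 6 in endothelial cells, 2 of 6 in Cluster 7 and 1 of 3 in joined microglia; genes are not independent replicates.

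The genes named were, per cluster, up to 8 higher and up to 8 lower called genes with the largest log2 changes among those without overlap between time points, all calls where there were 10 or fewer, called members of 25 gene lists, and markers of the cluster. For the largest changes, lack of overlap was thus a condition of being named. Whether called or not, Ryk, Gfap, Vim, Serpina3n, C4b, Spp1, Apoe, P2ry12 and Tmem119 could be named. Members, lists and comparisons were chosen with earlier results of these data known. Ratios to a group at 0 use a floor of 3 counts over the group; ratios to 1 to 3 counts are given with a 95% counting interval, and both cover counting error alone. Gene positions are from GENCODE vM21 on GRCm38, matched by symbol for 24 of 24 genes, and may differ from the annotation the authors counted on.

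The alternatives were DESeq2, no filter, no block, genotype as a term, cells with at least 500 UMIs, at least 30 cells, each series alone, libraries left out or regrouped by their cell names, all libraries in one fit, and each animal left out. Leaving out cells with shared barcodes or Gm42418, and the alternatives for the interaction and the quality measures, were chosen after seeing the data. The other time points entered the fit of all libraries alone.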

Additional observations from a re-analysis of the deposited data

Results flagged for a closer look

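A sample far from the other 3 of its group was found for 15 values of 317 groups of 4 looked at (4.73%), where chance marks about 1 in 20 groups. In the joined microglia Lipa was low in cKO 7 d replicate 2, at 102.73 against 191.32 to 201.63 in the others (CPM). Cst7 in Cluster 10 was high in cKO 7 d replicate 1, at 810.12 against 385.82 to 434.72 in the others (CPM). In Cluster 7, mt-Nd3 was high in cKO 7 d replicate 1, at 3587.6 against 449.31 to 804.43 in the others, and in WT uninjured replicate 1, at 568.1 against 159.22 to 222.19 in the others (CPM). There cKO uninjured replicate 1 had C4b at 79.608 against 8.6076 to 14.714 in the others and Aqp4 at 939.38 against 1631.1 to 1677.4 in the others (CPM). In neurons, mt-Nd3 was high in cKO 7 d replicate 1, at 7273.7 against 436.47 to 1188.4 in the others, and in WT uninjured replicate 1, at 1684.6 against 66.944 to 143.57 in the others (CPM). Stac was high in WT uninjured replicate 1, at 77.837 against 31.904 to 34.927 in the others, and Snap25 in cKO 7 d replicate 2, at 698.06 against 456.51 to 467.27 in the others (CPM).

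Among shares, Schwann cells were high in cKO 7 d replicate 2, at 6.7719 against 0 to 1.0806 in the others (% of cells). Neuron markers in Cluster 7 were high in cKO 7 d replicate 1, at 0.058873 against 0.015067 to 0.018579 in the others (% of UMIs). Red blood cell markers were high in neurons of cKO 7 d replicate 2, at 0.73411 against 0.011952 to 0.044615 in the others, and in endothelial cells of cKO 7 d replicate 2, at 1.7487 against 0.0044973 to 0.08868 in the others, and of WT uninjured replicate 2, at 0.84597 against 0.00076808 to 0.07767 in the others (% of UMIs).

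A difference between genotypes in the change with injury passed the edgeR interaction test in neurons for 3 genes. The log2 change in cKO minus that in WT was 6.6578 for Hbb-bs, 7.0004 for Hba-a1 and 4.2637 for mt-Nd3. Hbb-bs and Hba-a1 peaked in cKO 7 d replicate 2. The causes were not tested.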

How the results depend on the processing

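Counts of called genes depended on the animals and on the block for series. Counts below differ from those given above by more than 1.5 times, and after a 0 the number in parentheses is that of genes at an unadjusted p under 0.05. With DESeq2 in place of edgeR the counts outside 1.5 times were 93 in Cluster 1, 146 in Cluster 3, 28 in Cluster 4, 13 in Cluster 5, 22 in Cluster 8, 5 in Cluster 9, 16 in Cluster 11. With no filter on low counts they were 297 in Cluster 1, 79 in Cluster 3, 39 in Cluster 4, 53 in Cluster 6, 34 in Cluster 7, 7 in Cluster 8, 12 in Cluster 9, 102 in Cluster 10, 13 in Cluster 11, 172 in the joined microglia. With no block for the series, so that animals were not paired by replicate, they were 0 (908) in Cluster 1, 1 in Cluster 2, 0 (316) in Cluster 3, 0 (122) in Cluster 4, 0 (14) in Cluster 5, 3 in Clusters 6 and 7, 0 (70) in Cluster 8, 0 (90) in Cluster 9, 23 in Cluster 10, 19 in the joined microglia. With genotype as a further term they were 16 in Cluster 1, 19 in Cluster 2, 5 in Cluster 7, 0 (114) in Cluster 9, 14 in Cluster 10. With cells of at least 500 UMIs they were 176 in Cluster 1, 14 in Cluster 6, 49 in Cluster 7, 0 (144) in Cluster 9, 1 in Cluster 11. With at least 30 cells per animal they were 153 in Cluster 2, 23 in Cluster 4, 13 in Cluster 6, 5 in Cluster 9. In animals with numbers below 10000 alone they were 6 in Cluster 1, 0 (162) in Cluster 3, 4 in Cluster 4, 0 (51) in Cluster 7, 0 (43) in Cluster 9. In animals with numbers of 10000 and above alone they were 2620 in Cluster 1, 153 in Cluster 2, 367 in Cluster 3, 350 in Cluster 4, 175 in Cluster 5, 180 in Cluster 6, 235 in Cluster 7, 260 in Cluster 8, 226 in Cluster 9, 123 in Cluster 11, 218 in the joined microglia. Without the libraries whose cell names give another time point they were 0 (314) in Cluster 1, 0 (25) in Cluster 2, 6 in Cluster 3, 0 (96) in Cluster 4, 3 in Cluster 5, 9 in Cluster 6, 0 (118) in Cluster 7, 0 (71) in Cluster 8, 0 (26) in Cluster 9, 2 in Cluster 10, 43 in the joined microglia. With the time points of the cell names they were 0 (363) in Cluster 1, 0 (61) in Cluster 2, 0 (272) in Cluster 3, 0 (102) in Cluster 4, 15 in Cluster 5, 4 in Cluster 6, 0 (187) in Cluster 7, 0 (80) in Cluster 8, 0 (87) in Cluster 9, 7 in Cluster 10, 20 in the joined microglia. With all libraries of the series in one fit they were 26 in Cluster 2, 25 in Cluster 4, 22 in Cluster 5, 1 in Clusters 6, 8 and 9, 30 in Cluster 7, 15 in the joined microglia. Without cells whose barcode occurs in another library, chosen after seeing the data, the one outside was 108 in Cluster 1. Without Gm42418, chosen after seeing the data, they were 4 in Cluster 9.

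Leaving out 1 animal at a time gave 0 to 1157 in Cluster 1, 0 to 87 in Cluster 2, 14 to 360 in Cluster 3, 0 to 31 in Cluster 4, 9 to 153 in Cluster 5, 7 to 284 in Cluster 6, 0 to 100 in Cluster 7, 0 to 259 in Cluster 8, 0 to 5 in Cluster 9, 7 to 62 in Cluster 10, 0 to 260 in Cluster 11 and 24 to 290 in the joined microglia. Each count of 0 there is by edgeR. The highest counts in all but Clusters 2 and 9 came without WT uninjured replicate 1. In Clusters 5, 6, 8, 10 and 11 and the joined microglia that fit holds no uninjured animal of replicate 1. The cause of these shifts was not tested.

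For the interaction of genotype and injury, all alternatives were chosen after seeing the data. DESeq2 gave 0 (37) in Cluster 3, 2 in Cluster 10, 1 in the joined microglia. No filter on low counts gave 16 in Cluster 1, 6 in Cluster 3, 1 in Clusters 4 and 9, 3 in Clusters 6 and 10, 7 in Cluster 7 and the joined microglia. No block gave 0 (25) in Cluster 3. Cells of at least 500 UMIs gave 1 in Cluster 1, 2 in Cluster 7. Without the libraries named otherwise, the cKO uninjured and WT 7 d arms held 1 animal each, and no counts are given. Clusters 2, 5, 6, 8, 10 and 11 and the joined microglia could not be fitted this way. Leaving out 1 animal gave 0 to 13 in Cluster 1, 0 to 24 in Cluster 3, 0 to 2 in Cluster 4, 0 to 14 in Cluster 5, 0 to 95 in Cluster 6, 0 to 12 in Cluster 7, 0 to 106 in Cluster 8, 0 to 2 in Cluster 9, 0 to 35 in Cluster 10, 0 to 143 in Cluster 11 and 0 to 55 in the joined microglia. The cause was not tested.

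The called genes named in the text, counted once per cluster, kept their direction in every alternative that gave a value. Most alternatives reused the same animals for genes already called, so a kept direction is no independent check. These genes passed the threshold in 137 of 139 cases without cells of shared barcodes, 129 of 135 without Gm42418, 99 of 120 with DESeq2, 109 of 133 with cells of at least 500 UMIs, 102 of 139 with no filter and 104 of 134 in the higher animal numbers alone. They passed in 91 of 139 with genotype as a term, 71 of 139 with all libraries in one fit, 28 of 39 with at least 30 cells, 29 of 139 without the block, 20 of 130 without the libraries named otherwise, 12 of 139 with the time points of the cell names and 1 of 40 in the lower numbers alone. Over fits with 1 animal left out, between 40 and 117 passed. In the joined microglia, Gpnmb and Fn1 passed under each alternative run, Spp1 under each but DESeq2, Apoc1 under each but the fit of all libraries, and Abca1 under each but the time points of the cell names.

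Some values changed sign. The difference in the share of cells was -0.39456 points in Cluster 12 among the higher animal numbers. In Cluster 16 it was -0.012311 points among the lower numbers and ran over -0.3751 to 0.48768 when 1 animal was left out. In clusters whose share is not given above, the difference in neurons went from -3.64 to 7.59 points among the higher numbers and 1.51 without cKO uninjured replicate 1. In Cluster 4 it went from -1.48 to 2.03 among the higher numbers, 1.06 without WT uninjured replicate 1 and 0.679 with cells of at least 500 UMIs. It went from -0.902 to 2.00 in Cluster 7 among the higher numbers. For pericytes it went from 0.441 to -1.74 among the lower numbers, -0.031 without the libraries named otherwise, -0.128 without cKO uninjured replicate 2 and -0.174 without WT uninjured replicate 2. In Cluster 17 it went from -0.0755 to 0.172 among the lower numbers, 0.0693 with cells of at least 500 UMIs, 0.034 without the libraries named otherwise, 0.00336 without cKO uninjured replicate 1, 0.0923 without WT uninjured replicate 2 and 0.141 without WT 7 d replicate 2. Among the lower numbers alone the differences between 7 d and uninjured were -1671.5 median UMIs, -877.5 median genes and 0.32377 percentage points of mitochondrial UMIs. With 1 animal left out they ran over -544.46 to 487.21 UMIs, -216.58 to 242.08 genes and -0.065563 to 0.15961 percentage points of haemoglobin. None of these passed a test, and the cause was not tested.

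The lower animal numbers alone could not be tested in Clusters 2, 5, 6, 8, 10 and 11 or in the joined microglia, where too few of these animals had 10 cells. At least 30 cells per animal could not be fitted in Clusters 10 and 11, and it changed nothing where each animal had 30 already.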
